A study of Mus musculus with 18 samples.

Results

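The 10 genes described here are mitochondrially encoded subunits of the respiratory chain and the ATP synthase: mt-Nd1, mt-Nd2, mt-Nd4, mt-Nd5, mt-Nd6, mt-Cytb, mt-Co1, mt-Co2, mt-Co3 and mt-Atp6. They were taken by symbol from a table of 25926 genes, and 10 of 10 were present. The table held 13 rows of this kind in all, the others being mt-Nd3, mt-Nd4l and mt-Atp8. All 13 were found by their Ensembl identifier among the protein-coding genes of the mouse mitochondrial genome in GENCODE M21 on GRCm38. Values are FPKM, that is, sequenced fragments scaled to gene length and to the total of the sample. Levels per length can thus be set side by side between genes, within the limits of strand, overlap and nuclear copies given below.

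Bone marrow-derived macrophages (BMDMs) of C57BL/6 mice, grown for 7 days with 50 ng/mL M-CSF, gave 18 samples in 3 groups of 6. In every group the BMDMs lay above renal tubular epithelial cells (TECs) in a Transwell with 0.4 μm pores, so that the groups shared the coculture. NC had PBS and untreated TECs, COM had PBS and TECs exposed to calcium oxalate monohydrate (COM, 100 μg/mL, 24 h), and COM+Met had such TECs and BMDMs given Met (5.0 mM, 24 h), an abbreviation that the labels do not spell out. Whether samples of a group were separate mice or cultures is not in the labels, so p-values measure only the spread between samples, which may be technical.

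The mammalian mitochondrial genome is a small circle that is transcribed from both strands into long precursors, which are cut, mostly at the transfer RNAs, into shorter messages. Its protein-coding genes all serve oxidative phosphorylation: the Nd genes encode membrane subunits of complex I (NADH dehydrogenase), mt-Cytb the cytochrome b of complex III, the Co genes the core of complex IV (cytochrome c oxidase), and mt-Atp6 the proton-conducting subunit of the ATP synthase. The remaining subunits of these complexes, and all of complex II, come from the nucleus, so each complex other than complex II needs both genomes. Macrophages shift between oxidative phosphorylation and glycolysis when they are activated.

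Of the 10 genes, 9 lie on the same strand of the mitochondrial chromosome, with mt-Nd1 first at chrM:2751-3707, and mt-Nd6 alone lies on the other strand at chrM:13552-14070. The library kit does not mark strand, so reads of mt-Nd6 and of the opposite transcript cannot be told apart. Where neighbouring genes overlap, a fragment can belong to either. The overlaps are shown because they bear on how separately the rows can be read, with capitals for the start codon of the downstream gene and the stop codon of the upstream one, or, for mt-Nd5 and mt-Nd6, for the stop codons of both genes on their own strands (GRCm38, plus strand, GENCODE M21 transcripts).
mt-Atp8 and mt-Atp6, chrM:7927-7969: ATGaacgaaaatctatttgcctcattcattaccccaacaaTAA
mt-Nd4l and mt-Nd4, chrM:10167-10173: ATGcTAA
mt-Nd5 and mt-Nd6, chrM:13552-13565: TTAatctcgagTAA
The first overlap spans 43 bases, the second 7 and the third 14, and mt-Atp6 and mt-Co3 share 1 base.

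The mouse nuclear genome also holds a copy of part of the mitochondrial genome on chromosome 1, annotated as a row of pseudogenes on the minus strand. The table had a row for 0 of the 8 such pseudogenes that were looked up, of which 7 are in GENCODE M21. Gm28661 (chr1:24614885-24615565) was identical to mt-Co2 over 681 of 681 bases, Gm10925 to mt-Atp6 over 678 of 678, and Gm28437 to mt-Co3 over 783 of 783. Gm28439 was identical to mt-Nd4 over 876 bases, 63.6% of that gene, and Gm29216 matched bases 1063 to 1545 of mt-Co1 at 482 of 483 bases. The 5′ edge of that match is shown because it marks where the copy stops being the same as mt-Co1, with the 6 differing bases of 40 in capitals (GENCODE M21 transcripts, each on its own strand).
mt-Co1, bases 1054 to 1093: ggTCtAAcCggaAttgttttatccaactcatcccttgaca
Gm29216, bases 1 to 40: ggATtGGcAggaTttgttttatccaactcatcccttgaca
No copy was listed for mt-Nd1, mt-Nd2, mt-Nd5, mt-Nd6 or mt-Cytb. The sources used here do not give how reads shared with the copies were assigned.

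The 10 genes together held 5.31 to 6.27% of the summed FPKM in NC (mean 5.76 ± 0.343, SD, n = 6). The share was 3.80 to 4.30% in COM-1 to COM-5, 10.1% in COM-6, and 4.23 to 5.13% in COM+Met (4.73 ± 0.349, n = 6). On this measure NC lay above COM+Met, COM+Met overlapped the upper end of COM-1 to COM-5, and COM-6 lay above all other samples. Weighted by gene length, as an estimate of the share of fragments, the values were 2.43 to 2.91% in NC, 1.88 to 2.05% in COM-1 to COM-5, 4.59% in COM-6 and 2.16 to 2.61% in COM+Met, so that NC and COM+Met overlapped and COM+Met lay above COM-1 to COM-5. In level per length, mt-Co1, the catalytic subunit of complex IV, led with a mean of 7285 FPKM over the 18 samples. It was followed by mt-Co2 (3287), mt-Atp6 (2726), mt-Co3 (1765), mt-Cytb (1680), mt-Nd1 (1292), mt-Nd5 (1152), mt-Nd4 (1003), mt-Nd6 (959.9) and mt-Nd2 (732). Only the range of mt-Co1 stood clear of its neighbour in this order, and every other pair of neighbours overlapped across the samples.

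COM-6 stood apart from the rest of its group in these same genes and is therefore given separately throughout. Fits without COM-6 thus leave out a sample for its values in the genes tested. Their counts and p-values are a description beside the fits with all samples, not independent evidence. Against the mean of COM-1 to COM-5 on log2(FPKM + 1), it was higher by 1.90 for mt-Nd2, 1.82 for mt-Nd5, 1.79 for mt-Nd4 and 1.43 for mt-Nd1. The difference was 1.22 for mt-Co1, 1.16 for mt-Cytb, 1.09 for mt-Atp6, 1.00 for mt-Nd6, 0.68 for mt-Co2 and 0.33 for mt-Co3. Thus 8 of the 10 genes were at least 2-fold higher in this library, against 3.0% of the 10447 genes that averaged 1 FPKM or more in COM, whose median difference was -0.28. The nuclear-encoded subunits of the respiratory chain and the ATP synthase, complex II included, lay on the other side: 0 of 76 were at least 2-fold higher and 45 of 76 at least 2-fold lower, with a median of -1.08, beside 17.1% of all genes at least 2-fold lower. Of the other mitochondrial rows, mt-Nd4l was higher by 1.74 and mt-Atp8 by 0.51, and mt-Nd3 had a difference of -0.47. COM-6 also had the lowest summed FPKM of all samples, 380731 against 415715 to 449186 in the others. Its difference moved with transcript length over all genes, with a median of -0.61 among genes with transcripts of 204 to 2180 bases, which include the mitochondrial ones, and -0.04 among those of 4733 bases or more. The part of these properties in the levels of the mitochondrial genes, or of the nuclear-encoded subunits, was not tested.

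**Figure D1:**
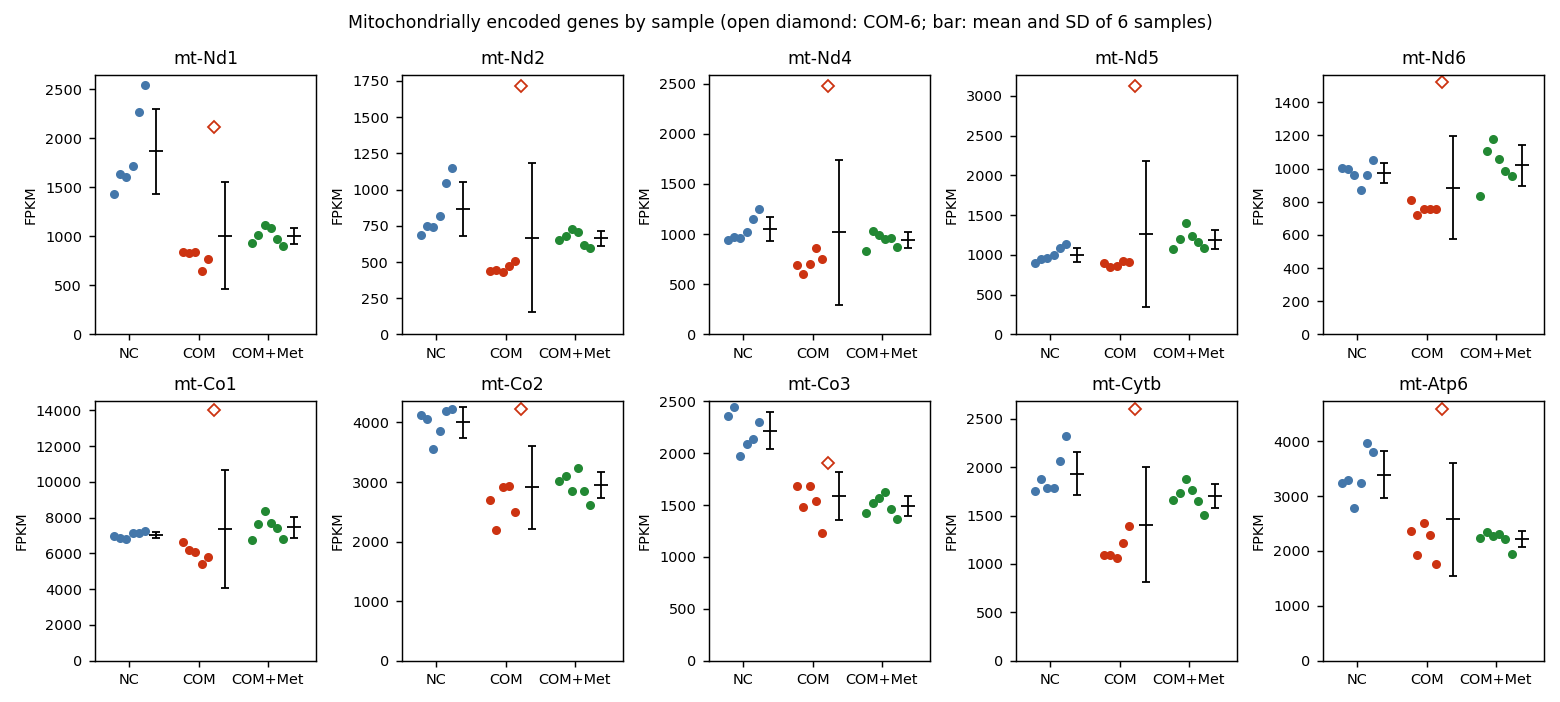
FPKM of the 10 mitochondrially encoded genes in each of the 18 samples (points, by group) with the mean and SD of 6 samples per group, each panel on its own linear axis from 0. COM-6, the open diamond, is the highest COM sample in all 10 panels, and COM-1 to COM-5 lie below NC in all panels except mt-Nd5, where the groups overlap.

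All 8 macrophage markers looked up were detected in each group, led by Lyz2, and by limma 2 rose and 2 fell in COM against NC. Of these Mrc1, the mannose receptor, fell from a mean of 79.9 to 3.26 FPKM, while Adgre1 (F4/80) rose from 112 to 577 and Fcgr1, an Fc receptor, from 8.05 to 83.7, and in COM+Met they stood at 2.62, 586 and 62.6. Tubular epithelial markers summed to 10.9 to 18.2 FPKM in NC, 0.468 to 1.35 in COM and 0.0435 to 0.324 in COM+Met over 13 genes, and Umod was at 0 in all samples while Cdh1 gave most of the NC sum. Neutrophil markers (10 genes) summed to 535 to 1017 FPKM in NC, 170.3 to 552 in COM (231 in COM-6) and 74.0 to 137 in COM+Met. Mmp8, S100a8 and S100a9 gave most of the NC sum, while Elane, Mpo and Ly6g reached at most 1.07, 0.263 and 0.257 FPKM in NC. Stromal markers (7 genes) summed to 15.6 to 64.4, 5.39 to 37.0 (20.7 in COM-6) and 3.42 to 8.14. These sums thus tended to be highest in NC and lowest in COM+Met, with overlap of NC and COM in the neutrophil and stromal sums. Single genes went the other way. The stromal Pdgfrb had means of 1.06 FPKM in NC, 4.81 in COM and 2.93 in COM+Met. The neutrophil Camp had 4.33 in NC and 9.01 in COM without COM-6. The part of these cell types in the differences between groups was not tested. In bulk RNA, fewer mitochondria or cells of a kind and less RNA in each cannot be told apart.

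The comparison of COM with NC asks what exposure of the TECs to crystals does to the mitochondrial messages of the macrophages above them. With all samples, 4 of the 10 genes fell, namely mt-Nd1, mt-Cytb, mt-Co3 and mt-Co2, by 0.98, 0.53, 0.49 and 0.49 on the log2 scale, and 0 rose. Without COM-6, 9 of 10 fell, by 0.23 to 1.22, in all 3 complexes and the ATP synthase, although mt-Co1 turned to 0.04 with another scaling given below. The test was limma, with p adjusted over every gene that averaged 1 FPKM or more and a threshold of 0.05, and 40.6% of 10900 genes were called lower with all samples and 44.2% of 10917 without COM-6. The 10 genes had a median change of -0.47 beside -0.27 for all genes tested, and -0.57 beside -0.22 without COM-6.

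In complex I, mt-Nd1 ran from 1433 to 2544 FPKM in NC (median 1674), from 649 to 843 in COM-1 to COM-5 (median 829.9) and stood at 2114 in COM-6. Leaving COM-6 aside, the groups did not overlap and every COM sample was below every NC sample. Its change was -0.98 (SE 0.26, limma adjusted p = 0.00725) with all samples and -1.22 (SE 0.15, adjusted p = 5.53e-05) without COM-6, the only 2-fold change among the 10. mt-Nd2 had 689 to 1149.9 FPKM in NC (median 781), 428 to 504 in COM-1 to COM-5 (median 445) and 1716 in COM-6. It was low in 5 COM samples and above all NC samples in COM-6, with a change of -0.57 (adjusted p = 0.140) that became -0.89 (SE 0.14, adjusted p = 0.000219) without COM-6.

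mt-Nd4, which carries part of the proton pathway of complex I, had 946 to 1253 FPKM in NC (median 996), 601 to 865 in COM-1 to COM-5 (median 706) and 2481 in COM-6. mt-Nd6, the gene on the opposite strand, had 871 to 1049.6 FPKM in NC (median 980.3), 721 to 811 in COM-1 to COM-5 (median 754) and 1519.7 in COM-6. Both were lower in the 5 COM samples without overlap, by 0.54 (SE 0.11, limma adjusted p = 0.00161) and 0.36 (SE 0.07, adjusted p = 0.00146), and neither passed with COM-6 (adjusted p = 0.495 and 0.375). mt-Nd5 was the exception, with 901 to 1136 FPKM in NC (median 978), 852 to 919 in COM-1 to COM-5 (median 895) and 3129 in COM-6. Its groups overlapped, and its difference was 0.13 (adjusted p = 0.713) with all samples and -0.17 (SE 0.08, adjusted p = 0.0828) without COM-6.

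In complex III, mt-Cytb had 1756 to 2327 FPKM in NC (median 1831), 1059 to 1387 in COM-1 to COM-5 (median 1093) and 2596 in COM-6. It fell by 0.53 (SE 0.21, limma adjusted p = 0.0483) with all samples and by 0.72 (SE 0.11, adjusted p = 0.000169) without COM-6, where the groups stood apart, but with COM-6 kept it did not pass when any 1 of the other 11 samples was left out. In complex IV, mt-Co1 kept a narrow range of 6817 to 7251 FPKM in NC (median 7072), against 5431 to 6619 in COM-1 to COM-5 (median 6102.5) and 14032 in COM-6. The 5 COM samples lay just below NC, by 0.23 (SE 0.09, adjusted p = 0.0449), while the difference with all samples was -0.02 (adjusted p = 0.937).

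mt-Co2, which takes electrons from cytochrome c, had 3549 to 4232 FPKM in NC (median 4090.2), 2199.6 to 2942 in COM-1 to COM-5 (median 2696.5) and 4223 in COM-6. mt-Co3 had 1974 to 2443 FPKM in NC (median 2215), 1233 to 1685 in COM-1 to COM-5 (median 1538) and 1906 in COM-6, so that it alone of the 10 did not overlap NC with all 6 COM samples, beside 29.7% of all genes tested. The changes were -0.49 for both with all samples (limma adjusted p = 0.0211 and 0.00749), and -0.60 and -0.54 without COM-6. mt-Atp6 had 2778 to 3961 FPKM in NC (median 3272), 1760.1 to 2516 in COM-1 to COM-5 (median 2291) and 4582 in COM-6. It passed the test only without COM-6, at -0.64 (SE 0.13, adjusted p = 0.0012), against -0.46 (adjusted p = 0.0844) with all samples.

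Without COM-6, 9 of the 10 genes did not overlap between the groups, all lower in COM, beside 32.7% of all genes tested. With COM-6 kept and NC-5 and NC-6, the NC samples with the most mt-Nd1, left out, mt-Nd1 and mt-Co3 alone passed. The size of the changes depended on scaling. With median-of-ratios size factors, which set the typical gene of each sample to the same level, the all-gene median moved from -0.27 to 0.01, and 0 of 10 genes passed with all samples, with mt-Nd4, mt-Nd5, mt-Nd6 and mt-Co1 above 0. With the same scaling and COM-6 left out, a choice made after the values had been seen, 6 passed, namely mt-Nd1, mt-Nd2, mt-Cytb, mt-Co2, mt-Co3 and mt-Atp6, beside 27.2% of all genes. mt-Nd1 was then at -0.96 (SE 0.15, limma adjusted p = 0.000226) and mt-Nd2 at -0.63, while mt-Nd5 and mt-Co1 were at 0.09 and 0.04. mt-Nd4 and mt-Nd6 did not pass under this scaling, at -0.27 (limma adjusted p = 0.125) and -0.09 (adjusted p = 0.396).

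**Figure D2:**
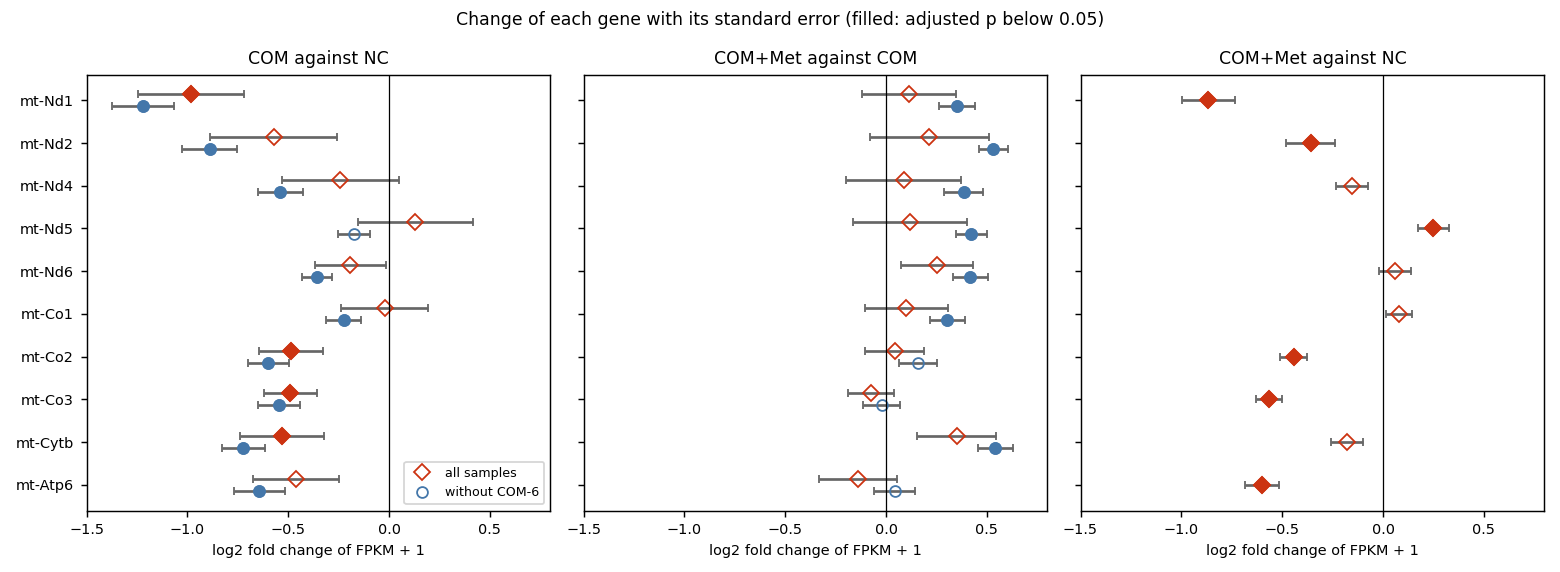
Log2 fold change of FPKM + 1 with its standard error for each gene in the 3 comparisons, with all samples (diamonds) and without COM-6 (circles), filled where the limma adjusted p was below 0.05. In COM against NC 4 diamonds and 9 circles are filled, in COM+Met against COM 0 diamonds and 7 circles, and in COM+Met against NC 6 diamonds.

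The comparison of COM+Met with COM asks what Met does under the same crystal exposure. With all samples 0 of the 10 genes passed in limma, 0 had an unadjusted p below 0.05 (the smallest was 0.101), and standard errors ran from 0.11 to 0.29 on the log2 scale. Of all 10364 genes tested, 5.77% were called higher. Without COM-6, 7 of 10 rose, by 0.30 to 0.54: all 5 complex I genes, mt-Cytb and mt-Co1, the last of which turned to -0.13 under quantile normalisation. mt-Co2, mt-Co3 and mt-Atp6 did not pass. The background was 10.6% of 10363 genes called higher, and the median change was 0.37 beside -0.04 for all genes.

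With COM-6 left out and median-of-ratios size factors 7 genes rose, beside 15.9% of all genes, and with quantile normalisation 6 rose, beside 17.5%, both settings being chosen after the values had been seen. The changes that follow are from the fit without COM-6 on FPKM as deposited, without such rescaling. mt-Cytb, at 1509 to 1879 FPKM in COM+Met (median 1698), lay above COM-1 to COM-5 and rose by 0.54 (SE 0.09, limma adjusted p = 0.00124). mt-Nd2, at 594 to 731 FPKM (median 665), rose by 0.53 (SE 0.07, adjusted p = 0.000447). mt-Nd5, at 1071 to 1401 FPKM (median 1181), rose by 0.42 (SE 0.08, adjusted p = 0.0023), which placed its lowest COM+Met sample above the highest of the 5 COM samples.

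mt-Nd6 rose by 0.42 (SE 0.09, limma adjusted p = 0.00536), with 833 to 1181 FPKM in COM+Met (median 1023). mt-Nd1 rose by 0.35 (SE 0.09, adjusted p = 0.013), with 900.4 to 1114 FPKM (median 994). mt-Co1 rose by 0.30 (SE 0.09, adjusted p = 0.0252), with 6769.9 to 8354 FPKM (median 7534). These genes too did not overlap COM-1 to COM-5, which makes 6 of 10 beside 7.06% of all genes, whereas mt-Nd4 overlapped (833 to 1035 FPKM, median 959) although it passed at 0.38 (SE 0.10, adjusted p = 0.0122).

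Without COM-6, the 3 genes that did not pass were those with an identical nuclear copy of nearly their whole length. That match depended on the setting. With quantile normalisation and COM-6 left out, mt-Co1, with a partial copy, did not pass either. With the replicate block and COM-6 left out, mt-Nd1, which has no listed copy, mt-Nd4 and mt-Co1 did not pass either. mt-Co2 had 2611.5 to 3234 FPKM in COM+Met (median 2939.6) and a difference of 0.16 (SE 0.09, limma adjusted p = 0.241). mt-Atp6 had 1951 to 2344 FPKM (median 2257) and a difference of 0.04 (SE 0.10, adjusted p = 0.788). mt-Co3 had 1369.8 to 1628 FPKM (median 1489.7) and a difference of -0.02 (SE 0.09, adjusted p = 0.886). All 3 also lie next to each other on the mitochondrial genome, where mt-Atp8, which overlaps mt-Atp6, had a difference of 0.04 (SE 0.11). No pseudogene of mt-Atp8 was listed, but it lies between mt-Co2 and mt-Atp6, which both have copies on chromosome 1. The copy of mt-Atp6 holds the 43 bases shared with mt-Atp8. The whole of mt-Atp8 was not aligned to chromosome 1, so it cannot be taken as free of a copy. Copy and position cannot be told apart in these rows, and the part of reads from the copies was not tested. mt-Nd4l and mt-Nd3, which have copies too, had 0.36 (SE 0.13, adjusted p = 0.0598) and 0.22 (SE 0.10, adjusted p = 0.136).

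**Figure D3:**
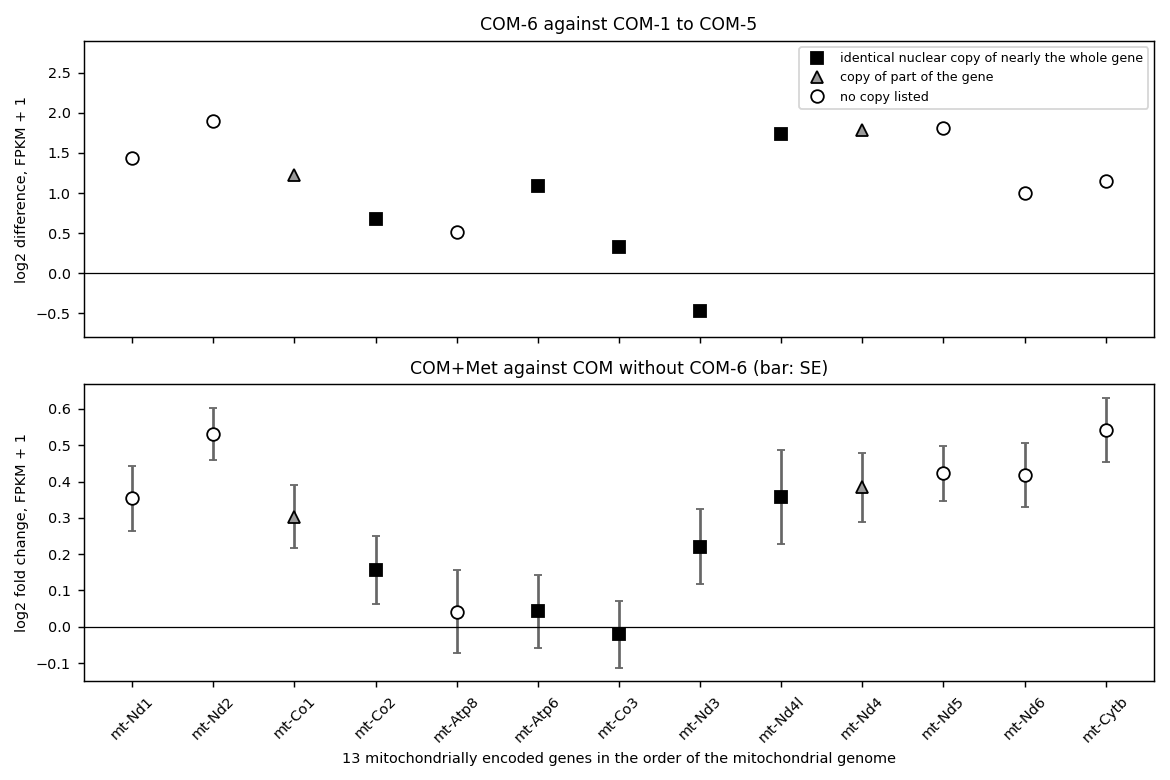
The 13 mitochondrially encoded genes in genome order, marked by whether a nuclear copy is listed: the log2 difference of COM-6 from the mean of COM-1 to COM-5 (top, 1 sample, no error) and the log2 fold change of COM+Met against COM without COM-6 with its SE (bottom). The lowest values of the lower panel are those of mt-Co3, mt-Atp8, mt-Atp6 and mt-Co2, which are neighbours, and the lowest of the upper panel is mt-Nd3 at -0.47. A mark of no copy means only that no pseudogene was listed, as for mt-Atp8, whose neighbours have copies.

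Against NC, COM+Met had genes that fell and a gene that rose. The 5 that fell were mt-Nd1 by 0.87 (SE 0.13), mt-Atp6 by 0.60 (SE 0.09), mt-Co3 by 0.57 (SE 0.07), mt-Co2 by 0.44 (SE 0.07) and mt-Nd2 by 0.36 (SE 0.12), with limma adjusted p from 5.225e-06 to 0.0169. Of these mt-Nd2 did not pass with all 18 samples in the same fit, with sample weights or with median-of-ratios size factors. mt-Nd5 rose by 0.25 (SE 0.08, adjusted p = 0.0105), although it fell short of the test with all 18 samples in the same fit and turned to -0.05 under quantile normalisation. mt-Nd4, mt-Nd6, mt-Cytb and mt-Co1 had differences of -0.15, 0.06, -0.18 and 0.08 and did not pass. The first 4 of the genes that fell did not overlap NC, beside 43.6% of all genes that lay apart and lower. Of all 10786 genes tested, 55.9% were called lower and 19.3% higher, and the median of the 10 genes, -0.27, was close to the all-gene median of -0.26. With median-of-ratios size factors 3 fell (mt-Nd1, mt-Co3 and mt-Atp6) and 3 rose (mt-Nd5, mt-Nd6 and mt-Co1), beside 34.5% and 36.1% of all genes. This comparison shares its COM+Met and its NC samples with the others.

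The proportions of the 10 messages to one another do not change when all values of a sample are divided by the same factor, although quantile normalisation, which reshapes each sample, does alter them. Each gene was therefore also expressed, per sample, as its log2(FPKM + 1) minus the mean over the 10 genes, and the groups were set against each other by exact permutation over samples, two-sided. There were 10 such tests in each of 3 comparisons, 30 in all, with unadjusted p and a smallest possible value of 0.00216 for 6 against 6 samples. Because the mean of the same 10 genes is subtracted, a shift of some genes moves the others the opposite way. The tests of a comparison are therefore not separate results. In COM, relative to NC, mt-Nd1 was lower against the mean of the 10 genes and mt-Nd5 and mt-Co1 were higher, COM-6 included.

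mt-Nd1 lay between -0.32 and 0.21 in NC and between -0.99 and -0.50 in COM, a difference of -0.60 (exact p = 0.00216). mt-Nd5 lay between -0.98 and -0.86 in NC and between -0.59 and 0.06 in COM, a difference of 0.51 (exact p = 0.00216). mt-Co1 lay between 1.72 and 1.97 in NC and between 2.07 and 2.38 in COM, a difference of 0.36 (exact p = 0.00216). None of the 3 overlapped between the groups, and the differences were -0.63, 0.42 and 0.37 without COM-6 (exact p = 0.00433, the smallest that 5 against 6 samples can give). mt-Nd6 differed by 0.19 with overlap (exact p = 0.026), and mt-Nd2 only without COM-6, by -0.30 (exact p = 0.013).

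In COM+Met, mt-Nd1 lay between -0.69 and -0.61, mt-Nd5 between -0.46 and -0.29, and mt-Co1 between 2.20 and 2.29. Against NC, these gave -0.59, 0.53 and 0.36 (exact p = 0.00216 for each), and 9 of the 10 genes had an unadjusted p below 0.05, mt-Nd2 being the exception. Between COM+Met and COM, the genes that differed were mt-Cytb (0.24, exact p = 0.013), mt-Atp6 (-0.25, exact p = 0.013) and mt-Nd6 (0.15, exact p = 0.0325), all with overlap. Without COM-6 they were mt-Co3 at -0.33 (exact p = 0.00433, no overlap), mt-Atp6 at -0.27 (exact p = 0.0173), mt-Cytb at 0.23 (exact p = 0.026), mt-Nd2 at 0.22 (exact p = 0.00866) and mt-Nd5 at 0.11 (exact p = 0.013). For mt-Nd1, mt-Nd5 and mt-Co1 the differences with all samples were 0.01, 0.01 and -0.01 (exact p = 0.933, 0.963 and 0.913).

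**Figure D4:**
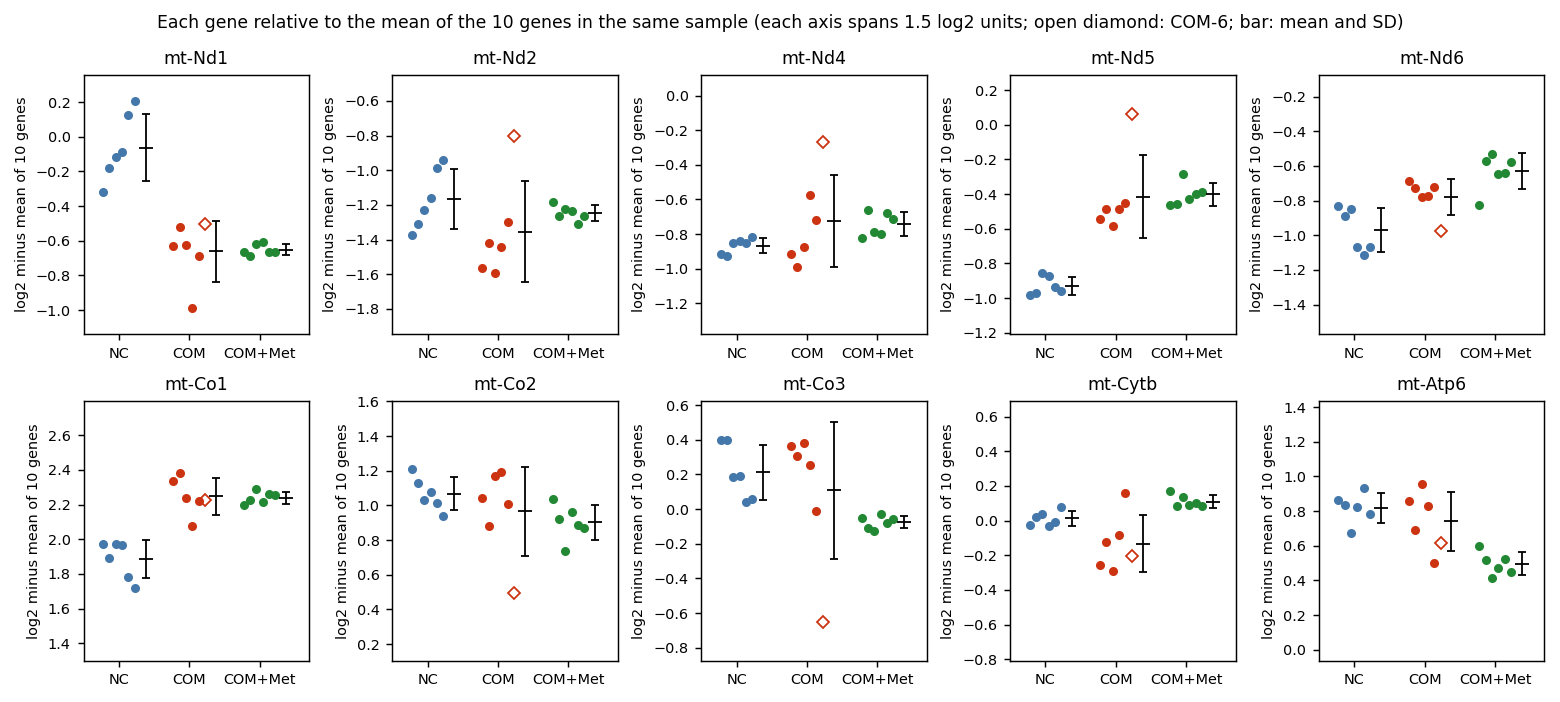
Log2(FPKM + 1) of each gene minus the mean over the 10 genes in the same sample, by group, with the mean and SD of 6 samples; every panel spans 1.5 log2 units. In mt-Nd1, mt-Nd5 and mt-Co1 no COM or COM+Met sample reaches the NC range, and COM-6 (open diamond) is lowest of all samples in mt-Co2 and mt-Co3.

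Among the other mitochondrial rows, mt-Nd3, a small complex I subunit, was lower in COM with and without COM-6. It had a mean of 231 ± 39.5 FPKM (SD, n = 6) in NC, 107 ± 18.8 in COM and 131 ± 13.9 in COM+Met. Its change in COM against NC was -1.11 (SE 0.15, limma adjusted p = 5.3e-05), and -1.03 without COM-6, without overlap in either case. mt-Atp8, an accessory ATP synthase subunit, changed by -0.59 (SE 0.18, adjusted p = 0.0146), and mt-Nd4l, of complex I, had a difference of -0.25 (adjusted p = 0.490) that was -0.54 (adjusted p = 0.0112) without COM-6.

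Of 77 nuclear-encoded subunits of the respiratory chain and the ATP synthase, 44 (57.1%) fell and 0 rose in COM against NC, beside 40.6% of all genes called lower. Without COM-6 51 (66.2%) fell, beside 44.2%, and 1 rose, the complex II subunit Sdhb, with a list median of -0.32 beside -0.22 for all genes. Their largest falls included Ndufa12 of complex I (-1.44, limma adjusted p = 0.00415), Uqcr11 of complex III (-1.26) and Atp5g2, a c-ring subunit of the ATP synthase (-1.11). Cox4i1, the main regulatory subunit of complex IV, went from a mean of 403 to 218 FPKM (-0.96). From COM to COM+Met, 4 (5.19%, beside 5.77% of all genes) rose and 0 fell with all samples, and 10 of 77 (beside 10.6% of all genes) rose and 2 fell without COM-6, with a median of 0.01 beside 0.37 for the 10 mitochondrially encoded genes. Ndufa12 was among those that rose, by 0.90 (SE 0.26, adjusted p = 0.0231) without COM-6. From NC to COM+Met, 51 (66.2%) fell and 2 rose, beside 55.9% of all genes called lower.

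Of messages for the transcription and processing of mitochondrial RNA, 13 of 38 tested (34.2%) fell and 4 (10.5%) rose in COM against NC, near or below the 40.6% and 12.7% of all genes. Without COM-6 15 (39.5%) fell and 7 (18.4%) rose, beside 44.2% and 15.5%. With all samples there were falls of Polg, the mitochondrial DNA polymerase (-0.97, limma adjusted p = 0.00201), and Tfb2m, a transcription initiation factor (-0.67). Pnpt1, a mitochondrial RNA-degrading nuclease, rose by 0.69 (adjusted p = 0.0252) and Slirp, a partner of Lrpprc in keeping mitochondrial messages stable, by 0.59. From COM to COM+Met, Lrpprc alone of 39 rose (2.56%, beside 5.77% of all genes), by 0.27 (limma adjusted p = 0.0279). Without COM-6 3 of 38 rose (7.89%, beside 10.6%), so both shares were below those of all genes. Among the 3 was Polrmt, the mitochondrial RNA polymerase (0.26, limma adjusted p = 0.00805), and Polg fell by 0.33. From NC to COM+Met, 9 of 39 (23.1%) rose and 13 (33.3%) fell, beside 19.3% and 55.9% of all genes.

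Of 78 mitochondrial ribosomal protein genes, 26 (33.3%) fell and 5 rose in COM against NC, and 30 (38.5%) fell and 7 rose without COM-6, shares below those of all genes. From COM to COM+Met 5 (6.41%) rose and 0 fell, and without COM-6 13 (16.7%) rose and 0 fell, beside 5.77% and 10.6% of all genes called higher. Among regulators of mitochondrial biogenesis, 5 of 11 tested (45.5%) fell and 0 rose in COM against NC, beside 40.6% and 12.7% of all genes. Without COM-6 6 (54.5%) fell and 0 rose, beside 44.2% and 15.5%. With all samples, Gabpa, a subunit of the factor that drives many respiratory genes, was at -0.70 (limma adjusted p = 0.00173). Sirt1, a deacetylase, was at -0.53 (adjusted p = 0.0139). From COM to COM+Met, 1 of 11 rose and 1 fell (9.09% each), beside 5.77% of all genes called higher and 786 of 10364 called lower. Pprc1, a coactivator of the PGC-1 family, rose by 0.37 (limma adjusted p = 0.00544). Prkaa1, a catalytic subunit of AMPK, fell by 0.56 (limma adjusted p = 0.0148).

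Across samples the 10 genes moved together to unequal degrees. Pearson's r between pairs of them on log2(FPKM + 1) ran from 0.0482 for mt-Co3 and mt-Nd5 to 0.954 for mt-Co1 and mt-Nd5 over 18 samples, with a median of 0.781. Over the 17 samples without COM-6 it ran from -0.121 for mt-Co3 and mt-Nd5 to 0.961 for mt-Cytb and mt-Nd2, with a median of 0.697. The points share the scaling of each library, and these values are a description.

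The 5 other genes most like the mean of the 10 over 18 samples, out of 10738, were Mphosph8, a reader of silencing histone marks (r = 0.958), Nbn, of the DNA break repair complex (0.949), Ccdc66 (0.944), Rbm6, an RNA-binding protein (0.935), and Ubxn4 (0.928). Mphosph8 had 7.90 to 9.36 FPKM in NC, 5.80 to 7.02 in COM-1 to COM-5, 12.9 in COM-6 and 6.83 to 8.04 in COM+Met. COM-6 was its highest sample, and r was 0.928 without COM-6.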

How the data were processed

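TruSeq libraries of 18 BMDM samples were grouped by their labels into NC, COM and COM+Met (6 each), and the authors deposited FPKM values of 25926 genes per sample. Bowtie 0.12.2, mm8 and mm9 are named in the submitters' processing notes, with no roles. Quantifier, annotation and filters: not given in the sources used here. FPKM keep no read depth, so no counting interval could be given. Positions and sequences came from GENCODE M21 (GRCm38), transcript lengths too (95.6% of genes matched).

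Each pair of groups was fitted on log2(FPKM + 1) with limma 3.58.1 (lmFit, eBayes with trend, R 4.3.3) over all genes averaging 1 FPKM or more, with Benjamini-Hochberg adjustment and a threshold of 0.05. A fold change on this scale understates that of low genes. The fit was tested on simulated data. Proportions among the 10 genes were compared by exact permutation tests. The genes named were the 10, the other mitochondrial rows and the 5 genes most correlated with the mean of the 10. Others were examples from the 2 largest rises and falls of each list among called genes. Lyz2, Umod, Cdh1, Mmp8, Elane, Mpo and Ly6g were chosen after their values were seen. Members and lists were chosen with earlier results of these data known. Alternatives covered pseudocounts, filters, scaling, samples left out, sample weights and the replicate block. The numbers were not taken to pair the samples. Figures used Python 3.11.15 and matplotlib 3.10.9, alignments Biopython 1.88.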

Additional observations from a re-analysis of the deposited data

Results flagged for a closer look

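Each group of 6 samples was searched for a highest or lowest sample whose gap to its nearest neighbour took more of the whole range of the group than Dixon's critical value for 6 samples, which chance exceeds in about 5% of groups. Of 39 groups, formed by 13 mitochondrially encoded genes in 3 conditions, 11 had such a sample, and in 10 of them it was COM-6 as the highest of COM. The gap took 0.971 of the range for mt-Nd5 (3129 FPKM, the nearest sample at 919), 0.941 for mt-Nd2 (1716 against 504), 0.887 for mt-Nd6, 0.868 for mt-Nd1, 0.862 for mt-Co1 and 0.86 for mt-Nd4. It took 0.787 for mt-Cytb, 0.747 for mt-Nd4l, 0.732 for mt-Atp6 and 0.633 for mt-Co2. The genes share the library, so these are not separate events. mt-Co3, mt-Nd3 and mt-Atp8 in COM did not pass. The other sample was COM+Met-6, the lowest of COM+Met for mt-Atp6 (1951 FPKM, the nearest at 2213), with 0.668. The cause was not tested.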

How the results depend on the processing

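Over the 30 log2 fold changes of the 10 genes, 810 values under alternative settings were computed, of which 662 kept their direction and side of the threshold, 31 lost the call, 77 gained one and 40 turned direction. The causes were not tested. FPKM without depth limit what can be said of precision.

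The share of all genes called moved with the setting too. In COM against NC, 40.6% were called lower in the main fit. That share was 27.2% with median-of-ratios size factors and COM-6 left out. Counts given here and below without such a share cannot be set against all genes. In COM against NC, the 4 genes called lower became 1 with no filter on low values, 0 with median-of-ratios size factors, 8 with limma's sample weights, 2 without NC-5 and NC-6, 1 without COM-1, COM-2 and COM-3, and 8 without COM-4, COM-5 and COM-6. Leaving out 1 sample gave 3 to 9, with 9 without COM-6, beside 44.2% of all genes. With COM-6 left out, quantile normalisation gave 9. In COM+Met against COM, the 0 called higher became 7 with sample weights and 7 without COM-4, COM-5 and COM-6, and leaving out 1 sample gave 0 to 7. The 0 with all samples stood beside 5.77% of all genes, and the 7 without COM-6 beside 10.6%. With COM-6 left out, median-of-ratios size factors gave 7, beside 15.9% of all genes, and quantile normalisation 6, beside 17.5%. In COM+Met against NC, median-of-ratios size factors gave 3 higher and 3 lower, beside 36.1% and 34.5% of all genes. Quantile normalisation gave 0 and 8, and all 18 samples in the same fit 0 higher and 4 lower. Of the proportions, 2 to 5 differed between COM+Met and COM when 1 sample was left out, 3 to 5 between COM and NC, and 9 between COM+Met and NC.

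The replicate numbers do not pair the samples: deviations of samples with the same number correlated at -0.222 to 0.0569, and 0 of 18 samples correlated best with their own number. With the replicate block, the counts were 4, 0, and 5 lower with 1 higher, as without it. The replicate block with COM-6 left out, added after the data had been seen, gave 8 lower in COM against NC and 4 higher in COM+Met against COM. Under it mt-Nd5 was at -0.14 in the former, and mt-Co3 at 0.0034 and mt-Atp6 at 0.079 in the latter.

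These differences turned direction. In COM against NC, with median-of-ratios size factors, mt-Nd4 was at 0.079, mt-Nd6 at 0.13 and mt-Co1 at 0.30 (0.040 with COM-6 left out). Without COM-1, COM-2 and COM-3, mt-Nd4 was at 0.17 and mt-Co1 at 0.11. mt-Nd5 was at -0.15 with quantile normalisation (-0.47 with COM-6 left out), -0.12 with sample weights and -0.20 without COM-4, COM-5 and COM-6. Leaving out 1 sample gave -0.17 to 0.20 for mt-Nd5 and -0.23 to 0.048 for mt-Co1. In COM+Met against COM without COM-1, COM-2 and COM-3, mt-Nd1 was at -0.026, mt-Nd2 at -0.17, mt-Nd4 at -0.32, mt-Nd5 at -0.21, mt-Co1 at -0.036 and mt-Co2 at -0.098. With quantile normalisation mt-Co1 was at -0.29 (-0.13 with COM-6 left out) and mt-Co2 at -0.15. mt-Co2 was at -0.0027 with the same sum in each sample and at -0.0085 with the same sum of the rows not mitochondrially encoded. With median-of-ratios size factors and COM-6 left out, mt-Co3 was at 0.045 and mt-Atp6 at 0.11. Leaving out 1 sample gave -0.025 to 0.38 for mt-Nd4, -0.032 to 0.16 for mt-Co2 and -0.23 to 0.042 for mt-Atp6. In COM+Met against NC, mt-Nd4 was at 0.16 and mt-Cytb at 0.13 with median-of-ratios size factors, mt-Nd5 at -0.050, mt-Nd6 at -0.19 and mt-Co1 at -0.32 with quantile normalisation, and mt-Nd6 at -0.0095 with the same sum of the other rows.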
